A study of Homo sapiens with 16 samples.

Results

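The genes described here are the 33 that carry a mammalian cell from G1 into S phase: the D and E cyclins with their kinases, the CIP/KIP and INK4 inhibitors, the pocket proteins, the E2F and DP transcription factors, 3 drivers of S-phase entry and the 2 cyclins G. They were taken by symbol from a fixed list made by role, which was chosen with earlier results of these data known. All 33 were found among the 60719 gene identifiers of the count tables. MDA-MB-231 is an established line from a triple-negative breast cancer, and its RNA was sequenced in 16 libraries of 6 groups. Parental 231 cells (wild-type for TXNIP in the labels) and 231:TKO cells, in which TXNIP was deleted by CRISPR/Cas9, had 2 untreated replicates each. Each population also had 3 replicates with a non-targeting siRNA (siNT) and 3 with an siRNA against Myc (siMyc), all harvested 48 hours after transfection. According to the study's methods, the knockout cells came from clones grown out of single cells, so a difference between the populations can belong to a clone as well as to the loss of TXNIP. The study calls the replicates biological, and nothing says that they came from more than one clone, so p-values measure the spread between these cultures only.

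As background, a cell commits to division in G1 when D cyclins with CDK4 or CDK6, followed by E cyclins with CDK2, phosphorylate RB1 and its relatives. Phosphorylated pocket proteins let go of E2F–DP dimers, and the freed activator E2Fs switch on genes for DNA synthesis, among them E cyclins and further E2Fs. CIP/KIP proteins bind and restrain the cyclin–CDK2 complexes, INK4 proteins bind CDK4 and CDK6, and the atypical E2F7 and E2F8 shut E2F targets down again. Myc, a transcription factor that pairs with MAX on CACGTG elements (E-boxes), is known to promote entry into S phase, and TXNIP is an arrestin-like protein that restricts glucose uptake and is repressed by Myc.

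Total counts lay between 18953668 and 59799444 per library. TXNIP mRNA, in CPM (counts relative to library size, scaled by the TMM method over all 16 libraries), was 276 and 276 in untreated parental 231 and 12.7 and 46.5 in untreated 231:TKO. Both knockout cultures were below the parental ones, by -3.29 on the log2 scale (adjusted p = 0.0588), and the knockout replicates differed from each other. With siNT the difference was -5.42 (SE 0.11, adjusted p = 2.74e-10). MYC fell after siMyc by 1.21 on the log2 scale in 231:TKO and by 0.96 in parental 231. Here and throughout, adjusted p is the Benjamini-Hochberg value over all genes tested from edgeR's quasi-likelihood test, the threshold is 0.05, SE is the standard error of the log2 fold change, and "higher" or "lower" after a test means past that threshold. Some libraries stood apart. Between the untreated 231:TKO replicates, 13 of the genes were apart by over 0.3 in log2 CPM, against 0 between the parental 231 replicates. Replicate 1 of parental 231+siNT and replicate 3 of parental 231+siMyc departed together from the other replicates of their groups, with a correlation of their deviations of 0.897 over 13448 genes. Markers fit the labelled line in part: VIM, CD44, AXL, CAV1 and ZEB1 were expressed in every library, at 43.7 CPM or more, whereas SPARC reached at most 2.15. Of 9 luminal markers, ESR1, PGR and FOXA1 stayed under 1 CPM in every library and the other 6 averaged above it. Summed markers of myoepithelium, immune cells and endothelium reached at most 3.95, 8.31 and 0.455 CPM. The luminal markers summed to 1868 to 2210 CPM in parental 231+siNT and to 1073 to 1136 in 231:TKO+siNT. The 4 fibroblast markers, all of them detected, summed to 35.8 to 49.2 CPM in parental 231+siNT and to 22.6 to 23.8 in 231:TKO+siNT. They also moved in the other comparisons with no overlap, to 55.3 to 65.4 in parental 231+siMyc and 28.3 to 33.2 in 231:TKO+siMyc, and stood at 38.4 to 40.9 in untreated parental 231 against 16.3 to 22.2 in untreated 231:TKO. Luminal markers summed to 2295 to 2724 in parental 231+siMyc, 1165 to 1378 in 231:TKO+siMyc, 549 to 551 in untreated parental 231 and 612 to 625 in untreated 231:TKO. The part of either list in the differences between groups was not tested.

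Within untreated parental 231, levels per kilobase of exon were highest for CCND1, at 204 CPM per kb, which is D cyclin's main form in many epithelial tumours. E2F1 followed at 56.4 CPM per kb, its dimer partner TFDP1 at 52.4, MYBL2 at 48.0 and CDK4 at 37.1. At the other end, CCND2 lay at 0.00311 CPM per kb, E2F5 at 1.49 and CDKN1C at 1.53. Both CDKN2A (p16INK4A and p14ARF) and CDKN2B (p15INK4B), INK4 genes, had 0 counts in all 16 libraries. MDA-MB-231 is known to lack the CDKN2A region. At these depths a count of 0 allows at most 3 counts, which is 0.0502 CPM in the deepest library and 0.158 in the shallowest, for counting error only. The other 31 genes had more than 5 summed counts and were tested in every comparison. Of these, CCND2 was the only one under 2 CPM in all libraries.

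Knockdown of Myc was first examined in 231:TKO cells, as 231:TKO+siMyc against 231:TKO+siNT. Of the 31 genes tested, 16 were lower and 6 were higher. Across all 22450 genes tested in these libraries, 27.2% passed the threshold, 13.9% as lower and 13.3% as higher, and the 31 genes had a median of -0.16 in log2 fold change where all genes had 0.01. Every tested E cyclin, CDK and activator E2F that passed did so as lower, and all 3 CIP/KIP inhibitors passed as higher. The changes were small, and 5 of the 22 reached 0.5 on the log2 scale. In bulk RNA, fewer cells in a phase of the cycle and less RNA per cell cannot be told apart. The study followed proliferation as confluency and reports no effect of the Myc knockdown on it in either population. It also reports no change in proliferation with TXNIP loss in these cells.

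All 3 CIP/KIP inhibitors were higher with siMyc. CDKN1C, which encodes p57KIP2 (ENSG00000129757, chromosome 11 from 2883213 to 2885775, minus strand), was at 6.75, 7.16 and 7.57 CPM in the 3 siNT replicates and at 13.3, 11.8 and 13.6 in the siMyc replicates. The 2 groups did not overlap, and the log2 fold change was 0.85 (SE 0.089, adjusted p = 2.79e-07), the largest of the 31. Levels of CDKN1B (p27KIP1, ENSG00000111276, chromosome 12 from 12715058 to 12722369, plus strand) were 33.8, 35.2 and 36.3 CPM with siNT and 43.0, 44.4 and 44.9 with siMyc. Again every siMyc library was above every siNT library, with a log2 fold change of 0.33 (SE 0.059, adjusted p = 0.000178). CDKN1A (p21CIP1, ENSG00000124762, chromosome 6 from 36676460 to 36687337, plus strand), best known as a target of p53, went from 118, 133 and 122 CPM to 146, 145 and 138. Its change of 0.21 (SE 0.054, adjusted p = 0.00587) was small beside that of CDKN1C, although its groups did not overlap either. CCNG2, a cyclin linked to exit from the cycle (ENSG00000138764, chromosome 4 from 77157207 to 77433388, plus strand), was at 38.8, 44.5 and 43.4 CPM with siNT and 59.0, 58.6 and 69.2 with siMyc. It was higher by 0.57 (SE 0.07, adjusted p = 2.58e-06), and its relative CCNG1 was not called, at -0.07 (SE 0.067, adjusted p = 0.535). The remaining 2 higher genes were the pocket protein RBL2 (p130), at 0.24 (SE 0.062, adjusted p = 0.00446), and the repressor E2F7, at 0.24 (SE 0.052, adjusted p = 0.00156).

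Among genes that drive S-phase entry, CDC25A fell most. This phosphatase, which removes the inhibitory phosphates of CDK2 (ENSG00000164045, chromosome 3 from 48157146 to 48188417, minus strand), stood at 52.6, 51.4 and 52.0 CPM with siNT and at 32.0, 34.1 and 30.3 with siMyc. No siMyc library came near an siNT library, and the log2 fold change was -0.69 (SE 0.061, adjusted p = 2.87e-08). SKP2, the ubiquitin ligase subunit that targets p27 (ENSG00000145604, chromosome 5 from 36151989 to 36196849, plus strand), was at 56.4, 52.7 and 56.3 CPM and then at 34.9, 37.3 and 35.8, a change of -0.61 (SE 0.059, adjusted p = 9.35e-08) with no overlap. E2F8 (ENSG00000129173, chromosome 11 from 19224063 to 19241620, minus strand) went from 32.5, 31.1 and 31.3 CPM to 18.2, 21.8 and 22.1. It was lower at -0.61 (SE 0.074, adjusted p = 2.29e-06), opposite in direction to E2F7, the other atypical E2F. MYBL2 (B-Myb), which joins the MuvB proteins on late cell cycle genes, was lower at -0.38 (SE 0.063, adjusted p = 8.09e-05).

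**Figure D1:**
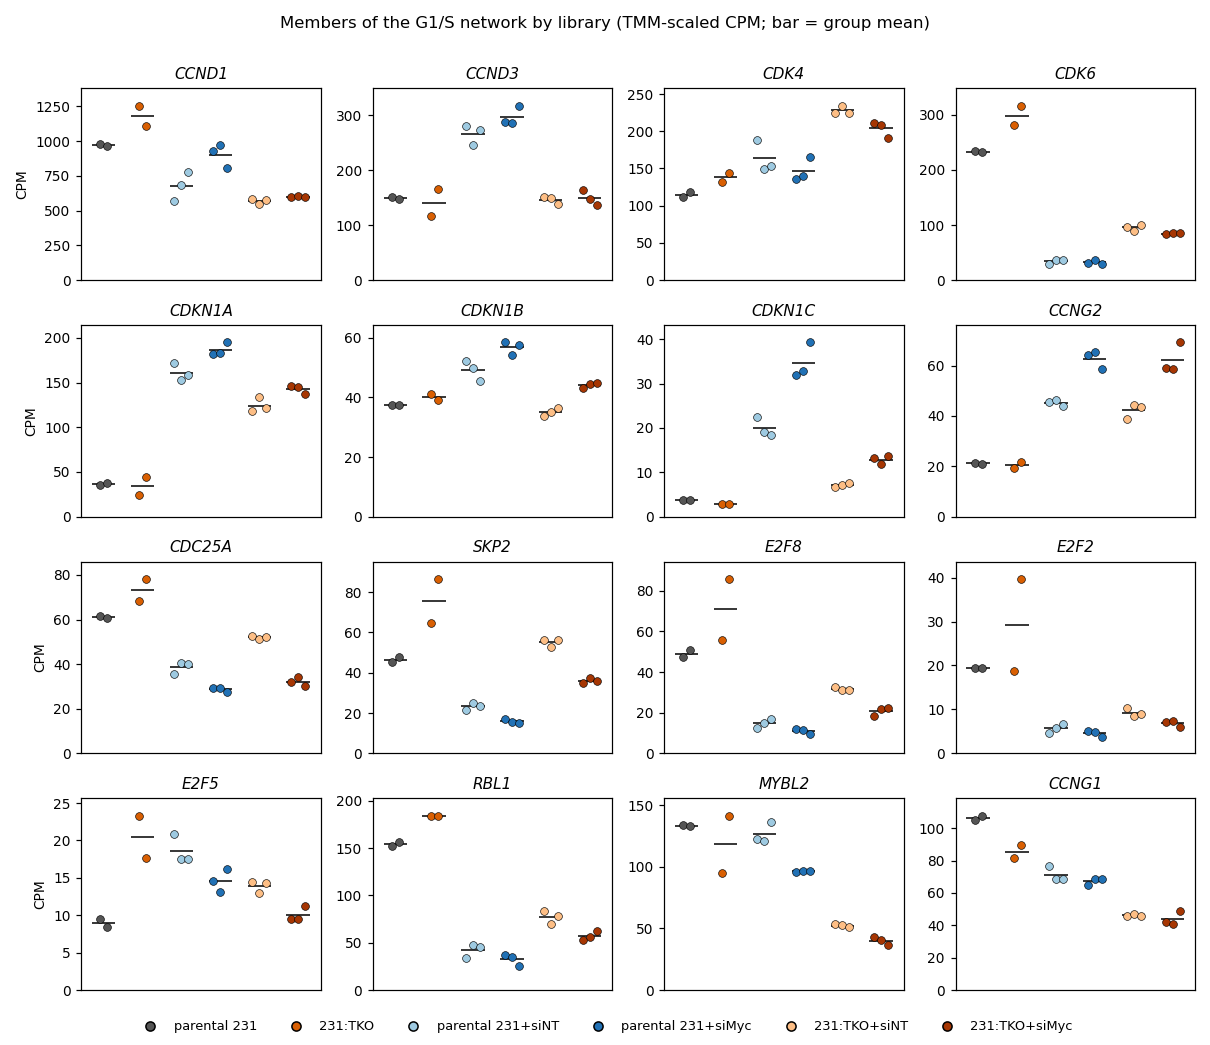
Level of 16 of the genes in each of the 16 libraries (vertical axis, TMM-scaled CPM, starting at 0). Points are libraries, black bars group means and colours the 6 groups. CDKN1C and CCNG2 lie higher, and CDC25A, SKP2 and MYBL2 lower, in all siMyc libraries than in the siNT libraries of the same population. Untreated libraries were made as single reads and the others as read pairs, so levels are compared within each kind.

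The kinase and E2F groups moved by less. CCNE1, the E cyclin that opens S phase with CDK2, was lower at -0.43 (SE 0.074, adjusted p = 0.000129) and CCNE2 at -0.34 (SE 0.073, adjusted p = 0.00133). Their kinase CDK2 changed by -0.16, CDK4 by -0.16 and CDK6 by -0.18, and these 3 had the adjusted p-values nearest to the threshold, of 0.0452, 0.02 and 0.0176. All 3 activator E2Fs were lower, E2F1 at -0.27 (SE 0.052, adjusted p = 0.000373), E2F2 at -0.44 (SE 0.10, adjusted p = 0.00289) and E2F3 at -0.31 (SE 0.058, adjusted p = 0.000252). Of E2F4 and E2F5, the repressors that act with pocket proteins, E2F4 was lower at -0.20 and E2F5 at -0.46, while E2F6, which represses without pocket proteins, was not called at -0.12 (SE 0.064, adjusted p = 0.196). The dimer partner TFDP1 was lower, at -0.33 (SE 0.048, adjusted p = 1.57e-05), and TFDP2 was at -0.08 (SE 0.059, adjusted p = 0.386). RBL1 (p107), itself a known E2F target, was lower at -0.42 (SE 0.07, adjusted p = 8.83e-05), RB1 was at 0.01 with a 95% interval of -0.13 to 0.14, and RBL2 was higher. Thus the 2 pocket proteins that passed did so in opposite directions. INK4 genes CDKN2C (p18) and CDKN2D (p19) were at -0.04 and -0.02, with intervals of -0.15 to 0.07 and -0.15 to 0.10.

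D cyclins did not pass the threshold in 231:TKO. CCND1 was at 584, 544 and 576 CPM with siNT and at 599, 602 and 601 with siMyc. Each siMyc library was above each siNT library, by little, and the log2 fold change was 0.08 (SE 0.045, adjusted p = 0.208), with an interval of -0.01 to 0.18. CCND3 was at 151, 149.7 and 138 CPM against 163, 147 and 136, with overlap and a change of 0.03 (SE 0.06, adjusted p = 0.815). CCND2 was at 0.201, 0.654 and 0.433 CPM against 0.313, 0.218 and 0.644 and its log2 fold change had an interval of -0.97 to 0.80.

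Promoter sequences of the genes were searched for 2 elements, the E-box and E2F-like sites. Windows from 250 bases before to 50 after the annotated start (RefSeq, GRCh38.p14) were found for 26 of the 33 genes, and both strands were searched. None was found for CCND1, CCND2, CCNE2, CDK2, CDKN1C, E2F5 and E2F8, which are therefore absent from the counts that follow. The start is that of a RefSeq transcript, and in 20 of the 26 it lay within 200 bases of the gene's start in the count tables. It lay inside the gene by 494 to 3703 bases in 5, CDK4 among them, and by 172706 bases in RB1, whose promoter at the gene start was thus not searched. The E-box CACGTG was in 5 of the 26 windows and in 7.43% of all 27305 promoter windows. An E2F-like site was taken as TTCCCGC, or as its variant TTGGCGC, or as its other variant TTCGCGC. Such a site was in 8 of the 26 and in 11.2% of all. Among the 12 matched genes that were lower with siMyc, 3 held the E-box and 6 an E2F-like site, among the 5 that were higher these were 1 and 1, and among the 7 not called also 1 and 1. Windows of 5 genes are printed to show where these letters lie, 5′ to 3′ along the gene, with matches in capitals. CDK4 (chr12:57752261-57752560, minus strand) has 3 E-boxes, at -216, -196 and -101 from the start, the most of any of the 26. E2F1 (chr20:33686336-33686635, minus strand) has an E2F-like site at -19, and E2F3 (chr6:20401629-20401928, plus strand) has 2, at -53 and -24. RBL1 (chr20:37095948-37096247, minus strand) has 2, at -25 and -15. CDC25A (chr3:48188368-48188667, minus strand) has 2 that overlap, at -43 and -40.
CDK4: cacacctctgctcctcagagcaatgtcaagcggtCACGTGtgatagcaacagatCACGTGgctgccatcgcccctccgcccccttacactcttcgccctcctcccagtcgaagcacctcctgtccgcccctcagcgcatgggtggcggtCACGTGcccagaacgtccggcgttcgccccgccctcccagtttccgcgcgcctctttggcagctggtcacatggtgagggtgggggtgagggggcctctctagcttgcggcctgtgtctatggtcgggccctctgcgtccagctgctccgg
E2F1: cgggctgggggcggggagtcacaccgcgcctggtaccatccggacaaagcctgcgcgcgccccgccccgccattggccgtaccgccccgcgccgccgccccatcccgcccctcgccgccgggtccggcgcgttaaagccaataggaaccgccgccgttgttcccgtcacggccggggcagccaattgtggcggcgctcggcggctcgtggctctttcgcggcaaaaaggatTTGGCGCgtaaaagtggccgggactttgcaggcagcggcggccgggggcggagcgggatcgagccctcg
E2F3: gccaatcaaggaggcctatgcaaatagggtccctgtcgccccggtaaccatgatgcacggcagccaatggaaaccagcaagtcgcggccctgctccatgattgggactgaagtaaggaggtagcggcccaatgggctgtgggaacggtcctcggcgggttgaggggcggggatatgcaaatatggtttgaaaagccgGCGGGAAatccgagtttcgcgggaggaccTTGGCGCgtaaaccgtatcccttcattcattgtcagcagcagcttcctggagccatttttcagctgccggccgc
RBL1: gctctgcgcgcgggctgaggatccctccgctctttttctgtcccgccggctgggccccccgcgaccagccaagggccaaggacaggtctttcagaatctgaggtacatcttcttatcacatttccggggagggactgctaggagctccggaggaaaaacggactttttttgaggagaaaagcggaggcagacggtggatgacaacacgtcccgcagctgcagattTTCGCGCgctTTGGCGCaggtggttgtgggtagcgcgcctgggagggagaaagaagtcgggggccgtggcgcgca
CDC25A: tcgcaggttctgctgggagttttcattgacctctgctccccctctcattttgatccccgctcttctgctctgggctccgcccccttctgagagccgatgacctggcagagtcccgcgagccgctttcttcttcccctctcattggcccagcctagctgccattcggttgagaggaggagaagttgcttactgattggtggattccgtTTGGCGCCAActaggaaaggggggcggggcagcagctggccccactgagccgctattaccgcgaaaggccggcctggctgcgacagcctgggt
Of the 5 genes with an E-box, CDK4, CDK6 and MYBL2 were lower with siMyc in 231:TKO, at -0.16, -0.18 and -0.38. CCNG2 was higher at 0.57, and CDKN2C was not called at -0.04. Neither sequence was in the windows of CCNE1, E2F4 and SKP2, all lower, or of CDKN1A, CDKN1B and RBL2, all higher. Whether either element takes part in the response was not tested. These matches are letters in a window, and no binding was measured in the files used here.

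The same knockdown was examined in parental 231. In parental 231+siMyc against parental 231+siNT, CDKN1C was the 1 gene of 31 past the threshold, where 0.594% of 23728 genes passed, 0.24% as higher and 0.354% as lower. CDKN1C was at 22.4, 19.1 and 18.3 CPM with siNT and 31.9, 32.8 and 39.3 with siMyc. Its groups did not overlap, and the log2 fold change was 0.78 (SE 0.13, adjusted p = 0.0496). The call is at the edge of the threshold and was lost when any of 5 of the 6 libraries was left out. Without the threshold, all 22 genes called in 231:TKO had the same sign here, and the matching share over all genes was not counted. SKP2, for instance, was at 21.6, 24.9 and 23.5 CPM against 17.1, 15.5 and 15.03, CDC25A at 35.5, 40.7 and 40.0 against 29.4, 29.1 and 27.5, and CCNG2 at 45.7, 46.4 and 43.8 against 64.4, 65.5 and 58.6. These 3 did not overlap between siNT and siMyc, yet their adjusted p-values were 0.0586, 0.0831 and 0.0767.

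The pair of parental libraries that stood apart widened the spread in these genes. Replicate 1 of siNT and replicate 3 of siMyc differed from the mean of the other 2 libraries of their group in the same direction for 25 of 30 genes (CCND2 and the genes at 0 left out). E2F7 was at 63.6, 99.4 and 93.5 CPM with siNT and 107, 110.4 and 71.3 with siMyc, RBL1 at 33.5, 47.2 and 45.5 against 36.9, 35.2 and 25.7, and CDK4 at 188, 149.5 and 153 against 136, 139 and 165. In E2F7 and RBL1 the pair is low within its groups, and in CDK4 it is high. Over the 30 genes the 2 deviations had a Pearson correlation of 0.926 and a Spearman correlation of 0.901. Each deviation was also lower for longer transcripts, with Spearman correlations with exon length of -0.653 for the siNT library and -0.673 for the siMyc library. These are descriptions over genes that share a library, and the part of RNA quality or of library preparation was not tested.

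**Figure D2:**
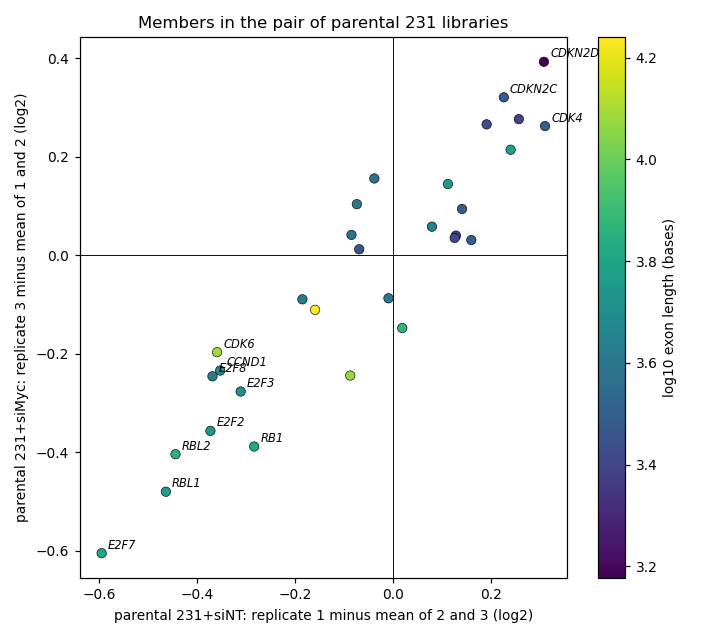
Deviation of 30 of the genes in parental 231+siNT replicate 1 (horizontal) and in parental 231+siMyc replicate 3 (vertical), each as log2 of CPM + 0.5 minus the mean of the other 2 replicates of its group, coloured by log10 exon length in bases. Points run along the diagonal (Pearson correlation 0.926), from E2F7 at the lower left to CDKN2D at the upper right.

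With a factor for this pair in the model, an alternative chosen after seeing the data, 7 of the 31 genes were higher and 14 lower in parental 231, where 26.8% of all genes passed, 13.7% as higher and 13.1% as lower. With the pair left out the counts were 5 and 12, where 20.8% passed, 9.94% as higher and 10.9% as lower. Of the 22 genes called in 231:TKO, 19 were called in the same direction with the factor and 16 with the pair left out. Over all 6106 genes called in 231:TKO these shares were not counted, so the agreement is not shown to be particular to these genes. With the factor, CDKN1C rose by 0.77 (SE 0.055, adjusted p = 6.23e-16), CCNG2 by 0.45 (SE 0.048, adjusted p = 9.88e-11), CDKN1A by 0.19 (SE 0.042, adjusted p = 0.000224) and CDKN1B by 0.18 (SE 0.049, adjusted p = 0.00268). SKP2 changed by -0.58 (SE 0.063, adjusted p = 1.45e-10), CDC25A by -0.45 (SE 0.052, adjusted p = 6.63e-10) and E2F8 by -0.45 (SE 0.074, adjusted p = 2.95e-06). The genes called in 231:TKO and not in parental 231 with the factor were CDK6, RBL2 and E2F3, at -0.10, 0.02 and -0.03. CCND1 and CCND3 were called in parental 231 with the factor and not in 231:TKO.

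**Figure D3:**
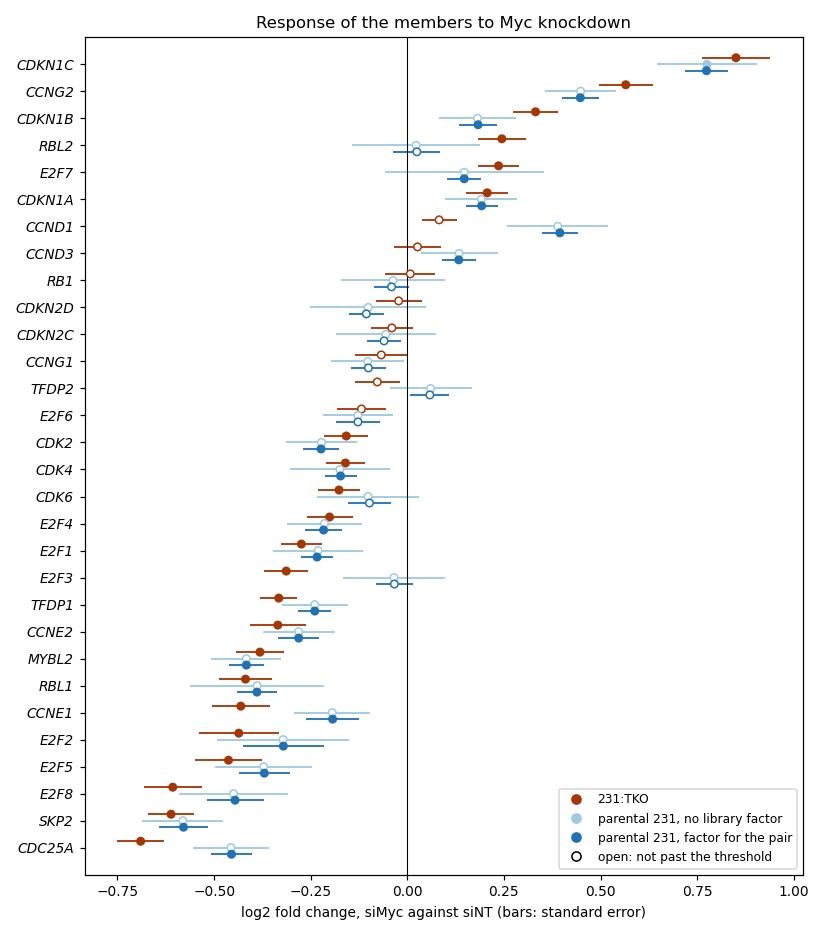
Log2 fold change of siMyc against siNT for 30 genes (CCND2 and the genes at 0 left out), in 231:TKO, in parental 231, and in parental 231 with a factor for the pair of libraries. Bars are standard errors, and filled points passed an adjusted p of 0.05. In parental 231 the factor leaves the estimates in place and narrows the bars. Of the 22 genes filled for 231:TKO, 19 are then filled in the same direction, and the matching share over all genes was not counted.

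CCND1, the D cyclin at the highest level, was the gene in which the populations came closest to differing. It was at 571, 686 and 777 CPM in parental 231+siNT and 925, 974 and 807 in parental 231+siMyc (ENSG00000110092, chromosome 11 from 69641156 to 69654474, plus strand). All 3 siMyc libraries exceeded all 3 siNT libraries, and the log2 fold change was 0.39 (SE 0.13, adjusted p = 0.219) without the factor and 0.39 (SE 0.047, adjusted p = 2.9e-09) with it, against 0.08 in 231:TKO. The difference between the responses was tested as an interaction over the 12 siRNA libraries. None of the 31 genes passed, as none of 25812 genes did (0% called), although 1039 genes had an unadjusted p under 0.05, and DESeq2 called 6, none of them among the 31. For CCND1 the difference was -0.28 with an interval of -0.57 to 0.02. With the factor it was -0.28 (SE 0.069, adjusted p = 0.0201) with an interval of -0.42 to -0.15, and 0.57% of all genes were called. With the pair left out it was -0.30 (SE 0.079, adjusted p = 0.108), where 0.252% of all genes were called. The call thus depends on how the pair is treated. For 25 of the 31 genes the 95% interval of the difference, without the factor, lay within 0.5 either way, and for 6 it reached 0.5 or beyond, so a difference of that size was not excluded for those 6. The interval was -0.27 to 0.27 for SKP2 and -0.39 to 0.39 for RBL1.

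Deletion of TXNIP was examined in untreated cells, as 231:TKO against parental 231. Of the 31 genes, E2F5 was higher and CCNG1 was lower, and 9.61% of all 19965 genes passed the threshold, 5.43% as higher and 4.18% as lower. The 31 genes had a median of 0.07 in log2 fold change where all genes had 0.00. E2F5, a partner of pocket proteins in repression (ENSG00000133740, chromosome 8 from 85177154 to 85217158, plus strand), was at 9.49 and 8.42 CPM in parental 231 and 23.3 and 17.6 in 231:TKO. Both knockout replicates were above both parental ones, with a log2 fold change of 1.12 (SE 0.17, adjusted p = 0.0234). CCNG1, a cyclin induced by p53 that takes part in feedback on MDM2 (ENSG00000113328, chromosome 5 from 163437569 to 163446151, plus strand), was at 105 and 108 CPM against 81.4 and 89.8, lower in both knockout cultures, by -0.39 (SE 0.076, adjusted p = 0.0412). SKP2, at 45.2 and 47.6 CPM against 64.7 and 86.5, had an adjusted p of 0.08 by edgeR and 0.00922 by DESeq2, with a log2 fold change of 0.63. Genes within 10 Mb of SKP2 had a median of 0.35, and with the median shift of each library in windows of 20 Mb taken out SKP2 was at 0.30 (adjusted p = 0.413).

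The replicates of 231:TKO pulled apart in this comparison. Of 30 genes (CCND2 and the genes at 0 left out), both knockout replicates were above both parental replicates in 15, below both in 5, and on opposite sides in 9. Over the 12777 genes with a mean above 1 CPM in these libraries the shares were 42.7%, 23.5% and 17.4%. E2F2 was at 19.4 and 19.3 CPM in parental 231 and 18.7 and 39.7 in 231:TKO, CDKN1A at 35.9 and 37.6 against 24.1 and 44.4, and MYBL2 at 134 and 133 against 94.8 and 141. In each of these 3, 1 knockout replicate lay above and the other below the parental pair. Without 231:TKO replicate 1, CDKN1A changed by 0.19, E2F2 by 0.95 and MYBL2 by 0.0015. Without 231:TKO replicate 2, 9 genes were lower, where 36% passed, 18.1% as higher and 17.9% as lower, and CDKN1A changed by -0.69. Each of these fits has 3 libraries, and the lone knockout library is taken to vary like the parental pair. E2F5 and CCNG1 kept their direction in both, E2F5 at 0.90 and 1.30 and CCNG1 at -0.33 and -0.47. Without either parental replicate in turn, edgeR called none of the 31 genes and 0 of all 19147 or 19130 tested, of which 2166 and 2140 had an unadjusted p under 0.05. DESeq2 was not run without these libraries. For D cyclins, CCND1 was at 977 and 966 CPM in parental 231 and 1254 and 1111 in 231:TKO, CCND3 at 151 and 148 against 116 and 166, and CCND2 at 0.0497 and 0 against 0.205 and 0. Levels of CCND3 in the knockout lay on either side of the parental pair, and none of the 3 was called. CDKN1B, at 37.5 and 37.4 against 41.2 and 39.2 CPM, changed by 0.03 (SE 0.075, adjusted p = 0.858).

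The populations were compared again among siNT-treated cells, which are other libraries than the untreated ones but serve as the controls of both knockdown comparisons. Here 11 of the 31 genes were higher and 8 lower in 231:TKO, where 36.8% of 23310 genes passed, 16.1% as higher and 20.7% as lower. The 31 genes had a median of 0.10 in log2 fold change where all genes had -0.03. Reads of the 2 populations were counted with different Ensembl releases, the later one for parental 231, and population and release cannot be told apart here. Among the genes described, only CDKN1B and RBL2 have an exon length that differs between the releases. The study does not say whether the siRNA libraries of the 2 populations were prepared together, so preparation and population cannot be told apart either. All 3 CIP/KIP inhibitors were lower and all 3 pocket proteins were higher in 231:TKO.

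Inhibitors were led by CDKN1C, at 22.4, 19.1 and 18.3 CPM in parental 231 and 6.75, 7.16 and 7.57 in 231:TKO. Every knockout library was under every parental one, by -1.50 (SE 0.12, adjusted p = 2.35e-06). In untreated cells its levels were 3.83 and 3.75 against 2.80 and 2.88 CPM, also lower in both knockout replicates but with -0.49 (SE 0.19, adjusted p = 0.194). CDKN1B was at 52.2, 50.05 and 45.7 CPM in parental 231+siNT against 33.8, 35.2 and 36.3 in 231:TKO+siNT, and CDKN1A at 172, 153 and 158 against 118, 133 and 122. Neither overlapped, and CDKN1B was lower at -0.52 (SE 0.092, adjusted p = 0.00112) and CDKN1A at -0.40 (SE 0.091, adjusted p = 0.00494). For CDKN1B the annotated exon length differs between the releases, 2565 against 9255 bases, so reads counted in parental 231 could have been left uncounted in 231:TKO, which was not tested. CDKN2D (p19INK4D), at 73.7, 58.3 and 60.5 CPM against 41.6, 40.8 and 39.3, did not overlap and was lower at -0.69 (SE 0.10, adjusted p = 0.000415). CDKN2C had an adjusted p of 0.0555 with a log2 fold change of -0.26.

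D-cyclin kinases went up while CCND3 went down. CDK6 (ENSG00000105810, chromosome 7 from 92604921 to 92836573, minus strand) was at 28.6, 36.8 and 36.8 CPM in parental 231+siNT and 96.2, 89.7 and 101 in 231:TKO+siNT. The knockout libraries were all far above the parental ones, with a log2 fold change of 1.46 (SE 0.12, adjusted p = 2.97e-06), the largest rise of the 31. Its sister kinase CDK4 was higher by 0.45 (SE 0.10, adjusted p = 0.00475). CCND3 (ENSG00000112576, chromosome 6 from 41934934 to 42050357, minus strand) was at 280.1, 246 and 273 CPM against 151, 149.7 and 138, with no overlap and a change of -0.89 (SE 0.09, adjusted p = 2e-05). CCND1 overlapped between the populations, at -0.28 (SE 0.11, adjusted p = 0.0695). CCNE1 was higher by 0.34 (SE 0.1, adjusted p = 0.0203), and CCNE2 and CDK2 were not called, at 0.23 and 0.10.

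Pocket proteins were all higher. RB1, the retinoblastoma protein (ENSG00000139687, chromosome 13 from 48303744 to 48599436, plus strand), was at 61.2, 74.3 and 74.8 CPM against 111, 99.5 and 115, RBL1 at 33.5, 47.2 and 45.5 against 83.1, 69.5 and 77.9. Neither gene overlapped between the populations, and the changes were 0.60 (SE 0.10, adjusted p = 0.001) and 0.84 (SE 0.13, adjusted p = 0.000512). RBL2 was higher by 0.49 (SE 0.13, adjusted p = 0.0119), with an exon length of 7268 bases in the release used for 231:TKO and 8110 in the other. Of the E2Fs, E2F8 was at 12.3, 15.1 and 17.0 CPM against 32.5, 31.1 and 31.3 and E2F2 at 4.66, 5.69 and 6.69 against 10.4, 8.40 and 8.93. Both were higher in all knockout libraries, by 1.07 (SE 0.12, adjusted p = 4.64e-05) and 0.68 (SE 0.15, adjusted p = 0.00433). TFDP1 was higher by 0.37, and E2F5 was lower at -0.45 (SE 0.11, adjusted p = 0.00684), at 20.8, 17.6 and 17.5 CPM against 14.4, 13.0 and 14.4, opposite to the untreated cells.

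The S-phase drivers split. SKP2 rose from 21.6, 24.9 and 23.5 CPM in parental 231 to 56.4, 52.7 and 56.3 in 231:TKO, by 1.21 (SE 0.094, adjusted p = 2.8e-06), and CDC25A by 0.40 (SE 0.092, adjusted p = 0.00569). MYBL2 (ENSG00000101057, chromosome 20 from 43667019 to 43716495, plus strand) instead was at 122, 121 and 136 CPM in parental 231 and 53.4, 52.4 and 50.8 in 231:TKO. No library overlapped, and at -1.31 (SE 0.089, adjusted p = 9.66e-07) this was the largest fall after CDKN1C. CCNG1 was at 76.6, 68.6 and 68.4 CPM against 45.8, 47.2 and 45.4, lower at -0.65 (SE 0.089, adjusted p = 0.00018), as in untreated cells. It was the 1 gene of the 31 called in the same direction in both comparisons. Of the 19 genes called here, 15 had the same sign in untreated cells, and the 2 comparisons share no library. The matching share over all genes called here was not counted. In a test of the difference between the 2 comparisons, added after seeing the data, 4 of the 31 genes had a higher and 5 a lower log2 fold change with siNT, where 14.1% of 25112 genes passed, 6.2% as higher and 7.91% as lower.

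**Figure D4:**
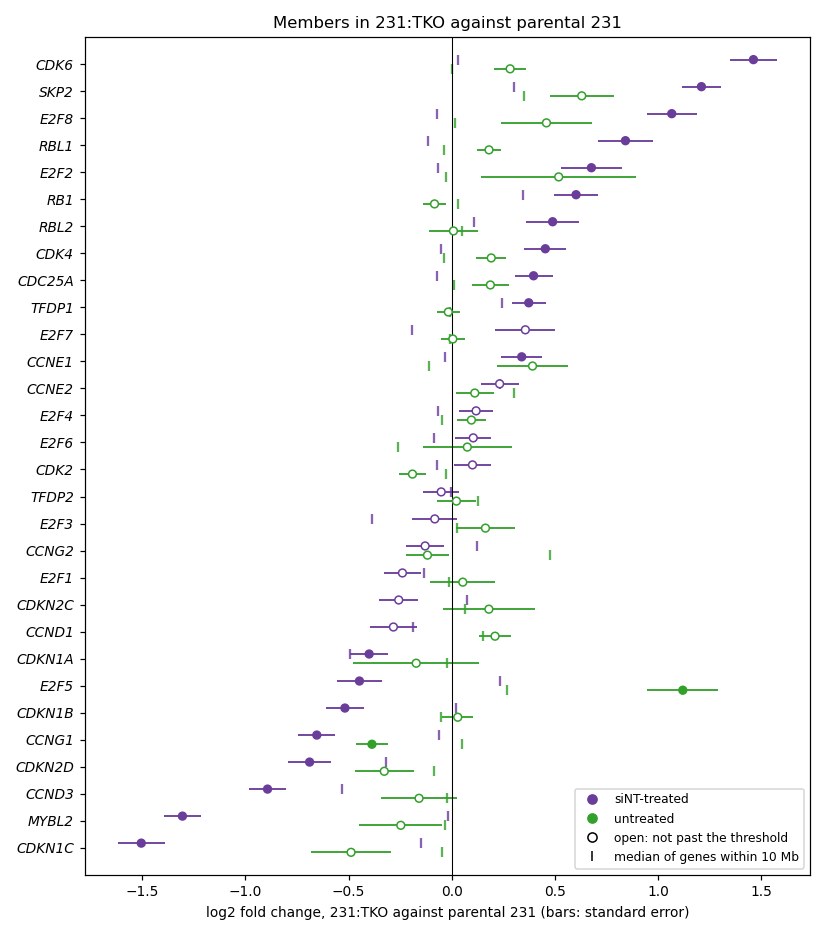
Log2 fold change of 231:TKO against parental 231 for 30 genes, with siNT and untreated. Bars are standard errors, filled points passed an adjusted p of 0.05, and ticks are the median log2 fold change of all genes above 1 CPM within 10 Mb of the gene. CDKN1C and MYBL2 lie far left of their ticks and CDK6 far right with siNT, E2F5 changes side, and CDKN1A lies near its tick.

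Genes near some of these moved with them. Among genes within 10 Mb, the median log2 fold change with siNT was -0.53 around CCND3 and -0.49 around CDKN1A, both on chromosome 6, 0.34 around RB1 on chromosome 13, -0.32 around CDKN2D on chromosome 19 and 0.30 around SKP2 on chromosome 5. Around CDK6, CDKN1C and MYBL2 it was 0.03, -0.15 and -0.02. With each library's median shift in windows of 20 Mb taken out, CDKN1A changed by 0.01 (adjusted p = 0.955), RB1 by 0.26 (adjusted p = 0.0768) and TFDP1 by 0.18 (adjusted p = 0.103), and CCND3 stayed lower at -0.50 (adjusted p = 0.00179). CDKN2D then stayed lower at -0.38 (adjusted p = 0.00878), E2F5 at -0.71 (adjusted p = 0.000266), and SKP2 stayed higher at 0.89 (adjusted p = 1.43e-05). Whether chromosome copies differ between the populations was not tested. Exon length moved with the result too: over 30 genes the siNT log2 fold change had a Spearman correlation of 0.529 with exon length, against 0.321 in untreated cells and -0.08 and -0.02 for siMyc in 231:TKO and parental 231. With each library's shift by exon length taken out, an alternative added after seeing the data, 15 genes were higher and 9 lower with siNT, including all 19 called without it, where 40.2% of all genes passed, 20% as higher and 20.3% as lower. Without parental 231+siNT replicate 1, the counts were 13 and 12, where 48.2% of all genes passed, 22.4% as higher and 25.8% as lower, and CCND1 was lower at -0.37 (adjusted p = 4.62e-07).

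Known companions of these genes were followed in 3 lists, chosen by role and with earlier results of these data known. Of 15 E2F targets needed to begin DNA synthesis, 13 were lower and 0 higher with siMyc in 231:TKO, with a median of -0.38, where 13.9% of all genes were lower and 13.3% higher. RRM2, the small subunit of ribonucleotide reductase, changed by -0.77 (SE 0.055, adjusted p = 2.17e-09), and ORC1, a subunit of the origin recognition complex, by -0.61 (SE 0.074, adjusted p = 1.85e-06). In parental 231 none of the 15 passed, with a median of -0.33. With the factor for the pair all 15 were lower, where 13.1% of all genes were lower and 13.7% higher. Of 21 partners of the G1/S machinery (cyclin-activating kinases, SCF subunits, MuvB proteins and others), 9 were lower and 2 higher in 231:TKO, with a median of -0.11. FBXO5 (EMI1), an inhibitor of the anaphase-promoting complex, fell by 0.47 (SE 0.071, adjusted p = 3.3e-05) on the log2 scale and LIN9, a MuvB protein, by 0.44 (SE 0.085, adjusted p = 0.000439). In parental 231 none of the 21 was called. With the factor 1 was higher and 10 lower, against the same shares of 13.7% and 13.1% over all genes. Between the siNT-treated populations 3 E2F targets were higher and 3 lower in 231:TKO, and 6 and 2 of the partners, where 16.1% of all genes were higher and 20.7% lower.

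The third list held 16 targets and regulators of p53, whose gene carries an inactivating mutation in MDA-MB-231. With siMyc in 231:TKO 2 were higher and 2 lower, with a median of 0.02, near the shares over all genes of 13.3% and 13.9%. In parental 231 1 was higher, where 0.24% of all genes were higher and 0.354% lower. With the factor 3 were higher and 4 lower, where 13.7% of all genes were higher and 13.1% lower. Between the siNT-treated populations 10 were higher and 1 was lower in 231:TKO, with a median of 0.38, where 16.1% of all genes were higher and 20.7% lower. BTG2, an antiproliferative gene, changed by 2.35 (SE 0.20, adjusted p = 4.77e-06) and TP53INP1 by 1.35 (SE 0.10, adjusted p = 2.4e-06). CDKN1A and CCNG1, which p53 can also induce, were both lower. With each library's median shift in windows of 20 Mb taken out, CDKN1A was at 0.0075 and CCNG1 at -0.57. Values of BTG2 and TP53INP1 with that shift taken out are not given here. In untreated cells none of the 16 was higher and 1 was lower in 231:TKO, where the shares were 5.43% and 4.18%.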

How the data were processed

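Gene counts from 16 RNA-seq libraries of MDA-MB-231 cells were used as deposited. Per the file headers and the study's methods, the authors captured mRNA, aligned reads to GRCh38 with STAR and made the counts with featureCounts 1.6.3, on the reverse strand and by largest overlap. Single reads were counted in untreated libraries and read pairs in siRNA libraries, with Ensembl 104 for parental 231 with siRNA and Ensembl 102 for all others. Total counts were 18953668 to 59799444 per library, and counting intervals cover counting error only.

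Groups followed the labels. Each comparison was fitted on its own libraries with edgeR 4.0.16 in R 4.3.3 (TMM, quasi-likelihood, robust), where the study used DESeq2, over genes with more than 5 summed counts, with a Benjamini-Hochberg adjusted p of at most 0.05 over all genes tested. DESeq2 1.42.0, other filters, scalings and thresholds, a replicate block, offsets for windows of 20 Mb and each library left out were alternatives. The fits were also run on simulated counts in which 200 genes were changed 2-fold. Over the comparisons, edgeR recovered 65% to 100% of these and called 6 to 17 unchanged genes. The simulated libraries were independent, with none standing apart and no shift by region or exon length. The simulation therefore cannot test the results that depend on those features. The genes and lists were chosen with earlier results of these data known. From each companion list, the 2 called genes with the largest fold change were named in the comparison where that list had most calls. Exon lengths and positions came from the count tables, and promoter windows from RefSeq. Same-numbered replicates did not deviate together in every pair, so the numbers were not taken to pair samples.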

Additional observations from a re-analysis of the deposited data

Results flagged for a closer look

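The effect of TXNIP deletion was set against itself under both conditions, as the log2 fold change of 231:TKO against parental 231 with siNT minus the same change in untreated cells, in 1 edgeR fit of 10 libraries. This comparison was added after seeing the data. The condition is joined to the kind of library, with single reads in the untreated libraries and read pairs in the siNT libraries, so the 2 cannot be told apart. With siNT the populations were also counted with different Ensembl releases, whereas all untreated libraries were counted with the same one. The release thus enters this difference and cannot be told apart from it either. Of the 31 genes, 9 passed an adjusted p of 0.05, where 14.1% of all 25112 genes did.

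The difference was -1.57 (SE 0.21, adjusted p = 0.000152) for E2F5, which was higher in untreated 231:TKO and lower with siNT. CDK6 had a difference of 1.18 (SE 0.17, adjusted p = 0.000242), RB1 of 0.68 (SE 0.15, adjusted p = 0.00676), RBL1 of 0.66 (SE 0.18, adjusted p = 0.0242) and SKP2 of 0.58 (SE 0.17, adjusted p = 0.0356), each with a higher log2 fold change with siNT than without treatment. In RB1 the change in untreated cells was -0.08. For MYBL2 the difference was -1.06 (SE 0.19, adjusted p = 0.00176), for CDKN1C -1.02 (SE 0.22, adjusted p = 0.00551), for CCND3 -0.74 (SE 0.19, adjusted p = 0.0153) and for CDKN1B -0.55 (SE 0.14, adjusted p = 0.0176), each lower with siNT than in untreated cells. With the shift by exon length taken out, the calls of SKP2 and CDKN1B were lost, at 0.33 (adjusted p = 0.278) and -0.36 (adjusted p = 0.0656). Among the genes called here, only CDKN1B has an annotated exon length that differs between the releases. The part of the release in its difference was not tested. Leaving out each library in turn gave 2 to 6 higher and 3 to 8 lower genes. MYBL2 and CCND3 were among the genes in which the untreated 231:TKO replicates lay on opposite sides of parental 231. Among genes within 10 Mb, the median of this difference was -0.53 around CCND3 and 0.29 around RB1. Around the other called genes it lay between -0.09 (RBL1) and 0.15 (CDKN1B). The part of such regional shifts in these differences was not tested.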

How the results depend on the processing

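Counts are given as higher and lower among the 31 genes. With siMyc in 231:TKO they were 6 and 16 of 6106 genes called in all, and DESeq2, other scalings and other filters left them within 1.5 times. A log2 change of at least 0.5 left 2 and 3 (1639 genes in all), and 1 fit of the 12 siRNA libraries gave 3 and 8 (2493). Leaving out each library gave 5 to 6 higher and 12 to 17 lower, of 4664 to 6923 genes. In parental 231 the counts of 1 and 0 (141 genes) became 2 and 3 (1110) by DESeq2, 0 and 0 (91) with DESeq2 size factors, 1 and 1 (330) with no filter on low counts, 1 and 1 (225) with more than 5 counts in every library, and 0 and 0 (0) at an adjusted p of 0.01. They were 3 and 4 (1666) in 1 fit of the 12 libraries, 7 and 14 (6366) with the factor for the pair, 5 and 12 (4673) without the pair, and 2 and 2 (1055) with offsets for exon length. Leaving out each library gave 0 to 1 and 0 to 1, of 0 to 160 genes. For the difference between the responses, DESeq2 called 6 genes in all, the factor called 1 lower gene of the 31 and 147 in all, and leaving out the pair called 63. Each library left out gave 0.

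For untreated 231:TKO against parental 231 the counts of 1 and 1 (1919 genes) became 2 higher by DESeq2 or with no filter, 0 and 0 (229) at an adjusted p of 0.01, 0 lower at a log2 change of at least 0.5, and 2 lower with offsets for windows of 20 Mb. Leaving out each library gave 0 to 15 higher and 0 to 9 lower, of 0 to 7002 genes. With siNT a log2 change of at least 0.5 left 6 higher, each library left out gave 9 to 13 and 8 to 12, of 6246 to 10877 genes, and CDKN1A turned to 0.0075 with the windows. For the difference between the effects of TXNIP deletion an adjusted p of 0.01 left 2 and 3 (1803), and each library left out gave 2 to 6 and 3 to 8, of 1758 to 5065 genes. Except where named in the text, the cause of these moves was not tested.

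With the replicate block, untreated cells gave 0 lower (904 genes), siMyc in parental 231 gave 0 and 0 (0 genes), siMyc in 231:TKO 6 and 16 (6831) and siNT 12 and 8 (8481). Correlations of same-numbered deviations were -0.148, 0.134 and 0.267 for siMyc in 231:TKO and -0.812, 0.629 and -0.746 in parental 231. The pair of libraries that stood apart enters the parental values. These correlations do not settle whether the numbers pair samples, and the main fits did not use them as pairs. Low counts limited CCND2, whose log2 fold change with siMyc in 231:TKO had an interval of -0.97 to 0.80.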
